A study of Rattus norvegicus with 6 samples.

Results

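The 9 corneal epithelial transcription factors described here are Pax6, Tp63, Klf4, Klf5, Elf3, Ehf, Ovol1, Ovol2 and Tfap2b, chosen by symbol as factors of the surface epithelium of the cornea, with earlier results of these data known. All 9 were among the 17771 genes listed, and all 9 passed the filter on low counts that left 14213 genes for testing. RNA came from the corneas of Wistar recipients of an allogeneic corneal graft, the donors being SD rats, that were injected daily into the abdominal cavity with resveratrol, a plant polyphenol, or with saline, until day 7 after surgery. There were 3 resveratrol libraries and 3 saline control libraries, and all 6 came from grafted corneas, so no ungrafted or syngeneic cornea enters the comparison. Whether each library was a separate animal, and whether the tissue was graft, host rim or both, is not stated in the labels, so a p-value reflects the spread among these samples alone, and that spread may be technical.

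The corneal epithelium is a stratified, non-keratinised layer renewed from stem cells of the limbus, the rim between cornea and conjunctiva. PAX6, a paired-box and homeobox factor, sets ocular surface identity and is needed for the corneal keratin Krt12. P63, the product of Tp63, maintains the proliferating basal layer, while KLF4, KLF5, ELF3 and EHF act as the cells differentiate and form a barrier. OVOL1 and OVOL2 are zinc finger repressors that hold mesenchymal genes down in epithelia, and TFAP2B belongs to the AP-2 factors of the neural crest and surface ectoderm.

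None of the 9 factors passed the test for a difference between resveratrol and control corneas. Fitted log2 fold changes were above 0 for 5 factors and below 0 for 4 (48.8% and 51.2% of all tested genes), with a median log2 fold change of 0.0029 over the members, against -0.0080 over all genes tested. The largest fitted fold changes, resveratrol over control, were 1.59 for Ovol2, 1.32 for Tp63 and 1.15 for Klf4. Tp63 and Klf4 were the 2 factors whose libraries did not overlap between the groups, and the other 7 overlapped. Pax6 and Ovol1 varied more between replicate 1 and the other replicates than between the treatments.

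The libraries held 35068936 to 37460756 counts each. Defining genes of the epithelium were abundant in every library, with Krt12 at 35071 ± 2934 CPM (counts scaled to a common library size) in resveratrol and 34169 ± 1076 CPM in control, and Krt5, a keratin of basal cells, at 27074 ± 2906 and 26472 ± 2236 CPM in resveratrol and control (SD, n = 3 each). The summed CPM of 9 epithelial structural genes (Krt12, Krt5, Krt14, Aldh3a1, Tkt, Cdh1, Dsp, Perp and Epcam) was 94097 to 110517 in resveratrol and 94027 to 104628 in control. Keratins of the conjunctiva were present too, with Krt13 at 5621 ± 1138 CPM in resveratrol and 6349 ± 907 CPM in control, while the goblet cell mucin Muc5ac had 38 counts over all libraries. Lens and retina genes were low, at a summed 5.87 to 10.9 and 0.983 to 2.28 CPM in resveratrol and 5.61 to 7.33 and 0.575 to 1.61 CPM in control, so tissues that also use Pax6 contributed few reads by these markers. The corneas were bulk tissue, in which fewer cells of a type and less RNA per cell cannot be told apart. All 10 tested leukocyte markers had lower means in resveratrol, with a summed level of 337 to 547 CPM against 554 to 1287 CPM in control, and so had all 8 blood vessel markers, at 282 to 358 CPM against 431 to 663 CPM.

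Of the 9 symbols, 9 matched RefSeq, and upstream sequence was at hand for Pax6, Tp63, Klf4, Klf5 and Elf3 in the build GRCr8, which differs from the build of the counts. The promoters of Krt12, the corneal keratin that several of the factors act on, of Elf3, the member with the highest level, and of Klf5 are shown because each holds the letters of a KLF site. Each covers 250 bases before the gene start, 5′ to 3′ on the gene's strand, for Krt12 chr10:84874266-84874515, minus strand, for Elf3 chr13:49247087-49247336, minus strand, and for Klf5 chr15:82471831-82472080, plus strand, with CACCC or its complement GGGTG in capitals.
Krt12: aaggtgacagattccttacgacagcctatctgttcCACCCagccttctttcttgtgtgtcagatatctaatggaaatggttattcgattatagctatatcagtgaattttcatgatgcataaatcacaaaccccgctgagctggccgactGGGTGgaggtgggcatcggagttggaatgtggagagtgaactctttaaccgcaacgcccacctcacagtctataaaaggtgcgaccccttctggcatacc
Elf3: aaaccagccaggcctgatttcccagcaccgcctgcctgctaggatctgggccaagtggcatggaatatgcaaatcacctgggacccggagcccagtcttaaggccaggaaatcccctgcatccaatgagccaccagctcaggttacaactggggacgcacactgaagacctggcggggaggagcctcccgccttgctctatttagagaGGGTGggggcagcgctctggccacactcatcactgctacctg
Klf5: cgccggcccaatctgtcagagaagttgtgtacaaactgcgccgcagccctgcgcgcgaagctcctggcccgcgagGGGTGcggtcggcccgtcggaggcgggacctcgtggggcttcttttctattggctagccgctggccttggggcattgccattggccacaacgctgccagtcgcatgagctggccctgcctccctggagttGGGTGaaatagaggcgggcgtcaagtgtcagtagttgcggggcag
The Krt12 window held 2 such matches, starting 215 and 100 bases before the gene start, the Klf5 window 2 and the Elf3 window 1. Of the 5 member promoters, those of Tp63, Klf5 and Elf3 held at least 1 match. The motif is short, and 49.2% of all 33469 RefSeq promoter windows of this length held it on either strand, so the matches describe the letters and identify no binding site. The ETS letters CCGGAA or TTCCGG, present in 12.6% of all windows, were in none of the 5 member windows nor in that of Krt12.

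Levels of different genes were set in order by FPKM (fragments scaled by gene length and library size), the deposited unit that accounts for gene length. Elf3, an ETS factor of epithelia, was highest, at 446 ± 32.2 FPKM in resveratrol and 502 ± 76.6 FPKM in control, above 99.2% of the listed genes. Klf4 came next at 302 ± 18.1 and 261 ± 15.6 FPKM in resveratrol and control. These 2 genes lay apart from each other and from all other members in every library. Ehf, an ETS factor related to Elf3, averaged 91.0 and 89.9 FPKM in resveratrol and control, Klf5 80.0 and 86.8 FPKM, and Pax6 72.9 and 69.2 FPKM. The ranges of Ehf and Klf5 overlapped over the 6 libraries, and so did those of Klf5 and Pax6, so these neighbours in the order were not separated by more than their spread. Tp63 at 37.4 and 28.1 FPKM in resveratrol and control and Ovol1 at 29.7 and 32.8 FPKM formed a lower pair that overlapped and stood in opposite order in the 2 groups. Tfap2b at 10.1 and 10.5 FPKM and Ovol2 at 3.199 and 1.996 FPKM were the lowest, and Ovol2 lay above 45.8% of the listed genes. The plot of FPKM per library shows these steps.

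**Figure D1:**
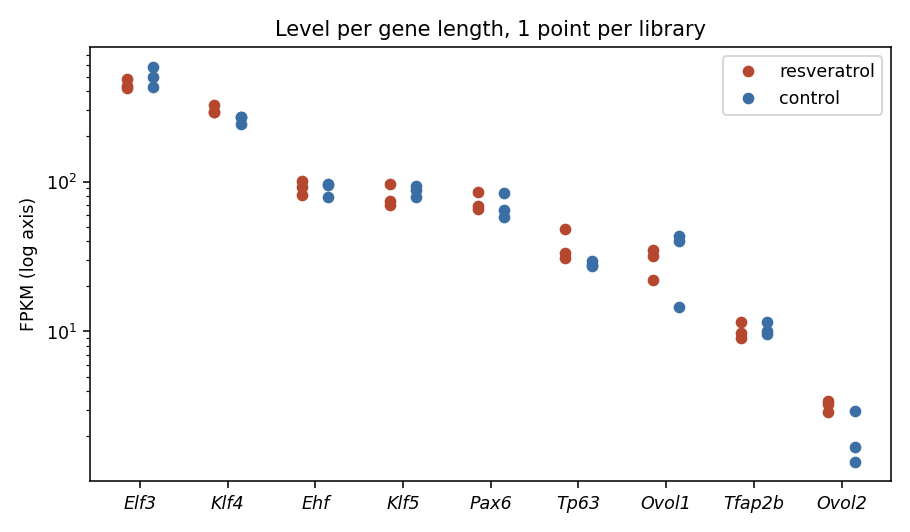
FPKM of the 9 factors on a log axis, with 1 point per library, resveratrol left of control for each gene, ordered by the mean over all 6 libraries. Elf3 and Klf4 stand above the rest in every library, Ehf, Klf5 and Pax6 overlap, Tp63 and Ovol1 overlap, and Ovol2 is lowest at 1.36 to 3.42 FPKM.

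The comparison between treatments was made on counts over all 14213 tested genes with edgeR's quasi-likelihood test, and levels are given as CPM scaled with TMM factors. With Benjamini-Hochberg adjustment 0 of the 9 factors had an adjusted p under 0.05, and 0% of all tested genes did. At an unadjusted p under 0.05 edgeR gave 0 of 9, against 19.6% of all genes (7.84% higher and 11.7% lower). DESeq2, run as an alternative, called 0 of 9 after adjustment, against 6.87% of the genes for which it gave an adjusted p (2.23% higher and 4.64% lower). Its unadjusted p was under 0.05 for 3 of 9, Ovol2, Tp63 and Klf4, against 17.3% of all genes. Resveratrol and control CPM lay apart without overlap for 2 of 9 factors (22.2%), against 26.5% of all tested genes, so the share among the members was near that of genes at large. Log2 fold changes below are resveratrol minus control ± moderated standard error, and intervals are 95% intervals of the fold change from limma on log2 CPM.

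Pax6 had 458, 346 and 356 CPM in resveratrol replicates 1, 2 and 3, against 453, 312 and 347 CPM in control replicates 1, 2 and 3. Replicate 1 was the high library in both groups and the groups overlapped. The means were 387 ± 62.2 CPM in resveratrol and 371 ± 73.0 CPM in control (SD, n = 3 each), a log2 fold change of 0.061 ± 0.16 (edgeR adjusted p = 0.867). The interval of the fold change was 0.804 to 1.37. Without resveratrol replicate 1 the difference was -0.070 and without control replicate 2 it was -0.048, so its sign was set by single libraries. The other Pax family genes were scarce: 3 of 8 were tested, the highest of them Pax9 at 1.59 ± 0.521 CPM in resveratrol and 2.18 ± 0.850 CPM in control, and Pax8 at 1.20 ± 0.329 and 1.12 ± 0.441 CPM, and 0 of the 3 passed.

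Tp63 had 359, 224 and 238 CPM in resveratrol, against 204, 218 and 199.8 CPM in control. Every resveratrol library lay above every control library, though resveratrol replicate 2 exceeded the highest control library by little and replicate 1 stood well above the rest. The means were 274 ± 74.5 and 207 ± 9.60 CPM in resveratrol and control (log2 fold change 0.40 ± 0.17, edgeR adjusted p = 0.266, interval 0.977 to 1.70-fold). Without resveratrol replicate 1 the difference was 0.16 (adjusted p = 0.385), so that library set most of the size. Counts per gene do not separate the isoforms with and without the transactivating domain, of which the shorter prevails in stratified epithelia. Tp73, a relative of Tp63, was at 13.9 ± 2.84 CPM in resveratrol and 13.6 ± 4.23 CPM in control and did not pass.

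Genes of the basal layer and known p63 targets formed a list of 20, of which 19 were tested. Means were higher in resveratrol for 14 and lower for 5, with a median log2 fold change of 0.13, and 0 passed edgeR's test. The groups did not overlap for 3 higher members and 1 lower member, 15.8% and 5.26% of those tested, against 12.2% and 14.4% of all genes. The most counted members, the keratins Krt5 (0.032 ± 0.24) and Krt14 (-0.20 ± 0.19), overlapped between the groups. Of the members named after their values were seen, Col17a1, the hemidesmosomal collagen, had 6736, 4043 and 4575 CPM in resveratrol, against 3858, 3407 and 3381 CPM in control (0.53 ± 0.20, edgeR adjusted p = 0.208, DESeq2 adjusted p = 0.0605). Replicate 1 was its high library in resveratrol, as for Tp63. Fgfr2, the receptor for keratinocyte growth factor, had 146, 169.5 and 154 CPM against 98.05, 112 and 125 CPM (0.49 ± 0.11), and Igfbp3, which binds insulin-like growth factors, 30.3, 43.5 and 40.5 CPM against 129, 108 and 65.5 CPM (-1.40 ± 0.25), in resveratrol and control. Neither overlapped, both had an edgeR adjusted p above 0.05, at 0.121 and 0.1002, and DESeq2 called both, at adjusted p = 0.00595 and 1.55e-05. They were the only DESeq2 calls among the 19, 1 higher and 1 lower, against 2.23% and 4.64% of all genes. Proliferation genes had higher means in resveratrol for 6 of 6 (median 0.39), while 48.8% of all genes had a fold change above 0. Mki67 was at 119 ± 33.6 and 82.8 ± 40.7 CPM and Pcna at 115 ± 7.21 and 84.1 ± 13.7 CPM in resveratrol and control. The groups did not overlap for 2 of the 6, both higher, 33.3% against 12.2% of all genes, and the Mki67 libraries overlapped. DESeq2 called Pcna alone (adjusted p = 0.0344), against 2.23% of all genes called higher, and edgeR 0. Limbal genes were higher for 5 and lower for 4 of 9 tested, with Krt15 at 665 ± 211 CPM in resveratrol and 753 ± 230 CPM in control and Txnip at 344 ± 42.0 and 343 ± 112 CPM. Of these limbal genes, 2 higher and 1 lower did not overlap, 22.2% and 11.1% against 12.2% and 14.4% of all genes. They were Gpha2 (0.65 ± 0.25), Bmi1 (0.12 ± 0.078) and Cd200 (-0.70 ± 0.25). Gpha2 had 356 ± 20.1 CPM in resveratrol and 227 ± 78.1 CPM in control. Ngfr (0.89 ± 0.31) overlapped, and neither edgeR nor DESeq2 called any limbal gene.

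Klf4 had 821, 721 and 710.1 CPM in resveratrol, against 676, 609 and 679 CPM in control, and the groups did not overlap. The means were 751 ± 61.2 and 654 ± 39.3 CPM in resveratrol and control, a log2 fold change of 0.20 ± 0.093 (edgeR adjusted p = 0.295) with an interval of 0.985 to 1.33-fold. Over every alternative fit tried its log2 fold change lay between 0.14 and 0.25 and its adjusted p between 0.207 and 0.606. Klf5, its relative, had 335, 234 and 246 CPM in resveratrol and 269.7, 320.4 and 301 CPM in control. Resveratrol replicate 1 was above all controls and replicates 2 and 3 were below them, so the groups overlapped (-0.13 ± 0.14, adjusted p = 0.658, interval 0.716 to 1.14-fold). Without resveratrol replicate 1 the difference was -0.30 (edgeR adjusted p = 0.266), and without resveratrol replicate 2 it was -0.031. Klf4 and Klf5 thus had opposite signs of which neither passed, and the difference between them was not tested. Of the 15 other KLF genes 10 were tested, 8 with a higher and 2 with a lower mean, 0 without overlap and 0 called by edgeR or DESeq2. Of all genes 48.8% had a fold change above 0, 26.5% did not overlap and DESeq2 called 6.87%. Klf3, the most counted, had 272 ± 22.3 and 259.7 ± 16.6 CPM in resveratrol and control, and Klf6 had 159 ± 39.5 and 171 ± 36.7 CPM.

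Elf3 had 868, 936 and 804 CPM in resveratrol, against 842, 984 and 1139.7 CPM in control. Control replicates 2 and 3 lay above every resveratrol library and control replicate 1 among them, and the log2 fold change was -0.19 ± 0.13 (edgeR adjusted p = 0.448, interval 0.719 to 1.09-fold). Without control replicate 3 it was -0.070 and without control replicate 1 it was -0.28 (edgeR adjusted p = 0.286). Ehf had 417, 446 and 355 CPM in resveratrol and 356, 433 and 427 CPM in control. Its means of 406 ± 46.5 and 405 ± 42.9 CPM in resveratrol and control were nearly the same (0.0029 ± 0.12, adjusted p = 0.993), and the interval ran from 0.828 to 1.21-fold. Of 24 other ETS genes 21 were tested, 7 with a higher and 14 with a lower mean. The groups did not overlap for 2 higher and 1 lower of them, 9.52% and 4.76% against 12.2% and 14.4% of all genes. Elk3 had 199 ± 28.5 CPM in resveratrol and 214 ± 7.54 CPM in control. Elk4, a cofactor of serum response factor, had 149, 135 and 143 CPM in resveratrol, against 110.1, 110.6 and 110.02 CPM in control (0.37 ± 0.068), without overlap. Its adjusted p was 0.103 in edgeR and 0.000428 in DESeq2. It was the only 1 of the 21 that DESeq2 called, against 2.23% of all genes called higher. The lower ETS genes included the haematopoietic factors Spi1 (-0.92 ± 0.32) and Fli1 (-0.63 ± 0.25), named after their values were seen. Both overlapped between the groups. They were lower in mean beside the leukocyte and vessel markers given above, and the part of those cells was not tested.

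**Figure D2:**
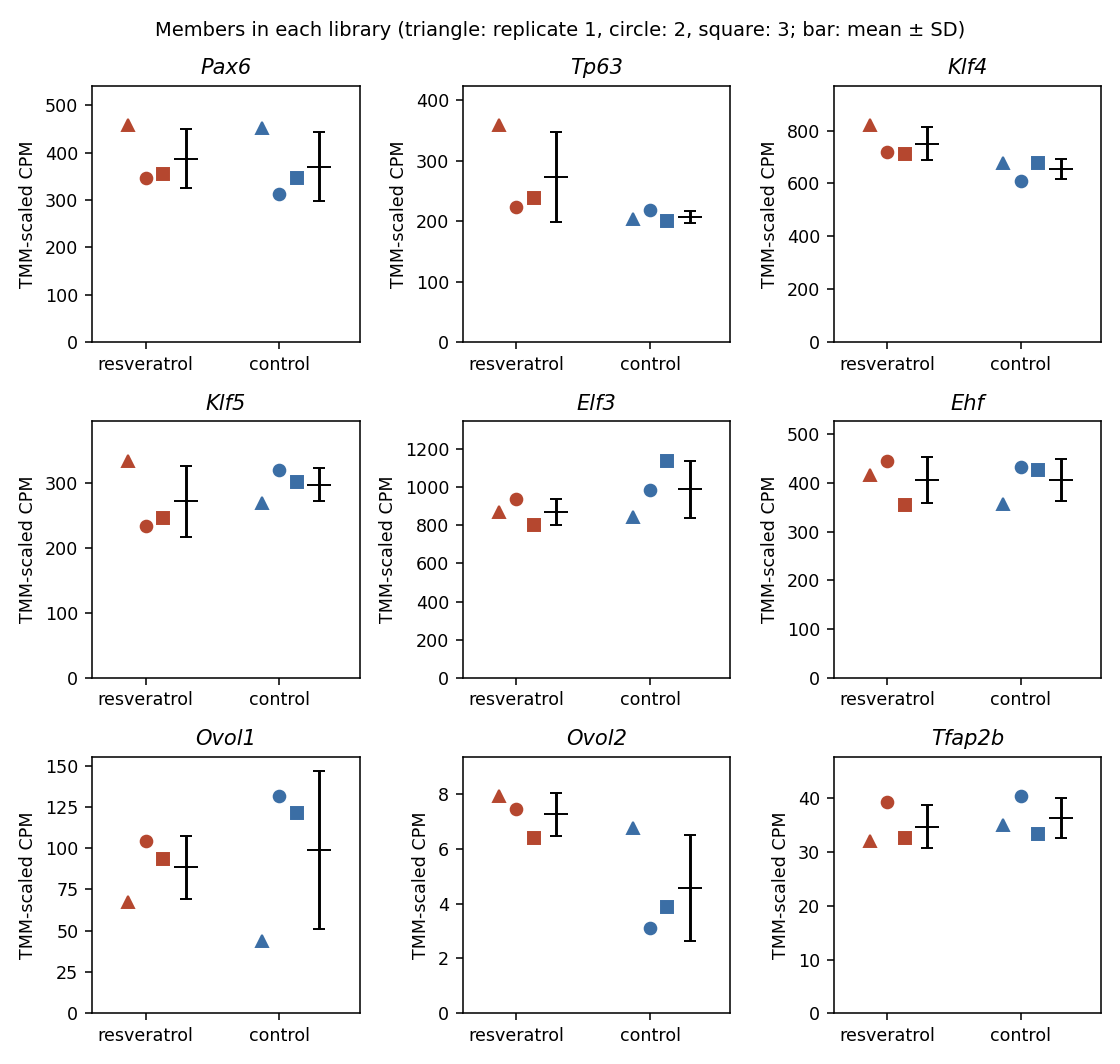
TMM-scaled CPM of each factor in the 3 resveratrol and 3 control libraries, with a triangle for replicate 1, a circle for 2 and a square for 3, and the mean ± SD beside the points; each axis starts at 0. Tp63 and Klf4 show no overlap between the groups, and replicate 1 is high for Pax6 and low for Ovol1 in both groups.

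Ovol1 had 67.3, 105 and 93.1 CPM in resveratrol, against 44.0, 132 and 121 CPM in control. Replicate 1 was the lowest library of each group, the control range enclosed the resveratrol range, and the log2 fold change was -0.16 ± 0.40 (edgeR adjusted p = 0.841). The interval of 0.509 to 1.88-fold was the widest of the 9 on the log2 scale. Without control replicate 1 the difference was -0.51 (edgeR adjusted p = 0.248, unadjusted p = 0.0264), and without control replicate 2 it was 0.098. Ovol2 had 7.92, 7.44 and 6.40 CPM in resveratrol, against 6.76, 3.10 and 3.86 CPM in control. The counts behind these were 290, 277 and 243 in resveratrol and 235, 114 and 144 in control, fewer than for any other member. All 3 resveratrol libraries lay above control replicates 2 and 3, while control replicate 1 fell among them. The log2 fold change was 0.67 ± 0.28, with an edgeR adjusted p of 0.261 (unadjusted p = 0.0533). The limma interval, which is not adjusted for the number of genes, was 1.05 to 2.63-fold. Without control replicate 1 the log2 fold change was 1.06, with an adjusted p of 0.169 in edgeR and 0.000883 in DESeq2, the single case among the fits run in which one of the 9 factors passed. Without control replicate 2 it was 0.45 (edgeR adjusted p = 0.526). Ovol3 was listed but had too few counts to test.

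Of 7 mesenchymal genes known from other systems to be held down by OVOL factors, or to mark the mesenchymal state, 6 were lower in mean in resveratrol, and the list median was -0.42 on the log2 scale. Of the 7, 4 did not overlap, all lower, which is 57.1% against 14.4% of all genes tested, while 0 passed edgeR and DESeq2 called 3 lower, against 4.64% of all genes. Zeb1, a repressor of E-cadherin, had 15.1, 16.6 and 13.7 CPM in resveratrol, against 22.7, 26.3 and 21.9 CPM in control (-0.64 ± 0.12, edgeR adjusted p = 0.1002, DESeq2 adjusted p = 0.000952). Vim, the intermediate filament of mesenchymal cells, had 491, 618 and 734 CPM against 907, 1259 and 919.8 CPM, and Cdh2, N-cadherin, 4.94, 4.81 and 7.40 CPM against 14.9, 17.5 and 9.09 CPM, in resveratrol and control. Both were lower in every resveratrol library than in any control library, and DESeq2 called both, at adjusted p = 0.00732 and 0.00126. Snai2 (0.021 ± 0.17) and Twist1 (-0.29 ± 0.16) overlapped between the groups, and Snai1 did too. Stromal, vessel and leukocyte cells express Vim and Zeb genes as well, and most of their tested markers had lower means in resveratrol. The stromal list had lower means for 9 of 10 tested, at a summed 9486 to 13303 CPM in resveratrol against 13973 to 20368 CPM in control. Of these, 4 did not overlap, all lower, which is 40.0% against 14.4% of all genes: Col1a1, Col1a2, Col5a1 and Thy1. The other stromal genes overlapped, among them Kera (-0.19 ± 0.27), Dcn (-0.071 ± 0.21) and Angptl7 (0.27 ± 0.62), the 1 with a higher mean. Col1a1, the most counted stromal gene, had 3593 ± 924 CPM in resveratrol and 7044 ± 2112 CPM in control. The antigen presentation gene Cd74 had 165 ± 22.8 and 396 ± 156 CPM, and the endothelial coreceptor Eng 77.6 ± 8.38 and 129 ± 20.7 CPM. Their part in the lower mesenchymal genes was not tested. Cdh1, the E-cadherin of epithelia, had 825 ± 55.2 CPM in resveratrol and 792 ± 17.2 CPM in control.

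Tfap2b had 32.0, 39.3 and 32.7 CPM in resveratrol, against 35.1, 40.4 and 33.4 CPM in control, with replicate 2 the highest library of each group (-0.066 ± 0.12, edgeR adjusted p = 0.784, interval 0.790 to 1.15-fold). In the eye this factor is also known from neural crest derivatives, including the corneal endothelium, so its place in the epithelium cannot be read from bulk tissue. Markers of corneal endothelium were detected: Slc4a11, a membrane transporter of that layer, had 11.6 ± 3.41 CPM in resveratrol and 7.88 ± 1.63 CPM in control, and Col8a2, a collagen of Descemet's membrane, 127 ± 4.91 and 159 ± 38.7 CPM. Of 9 tested endothelial markers 5 had higher and 4 lower means. The groups did not overlap for 1 higher and 3 lower markers, 11.1% and 33.3% against 12.2% and 14.4% of all genes. Col8a2 was among the lower ones. DESeq2 called 1 higher and 1 lower, against 2.23% and 4.64% of all genes, and edgeR called 0. The 2 were Alcam (0.60 ± 0.11, DESeq2 adjusted p = 0.000204) and Col8a1 (-0.72 ± 0.17, DESeq2 adjusted p = 0.00894). Tfap2a and Tfap2c, AP-2 factors of surface ectoderm, had 76.7 ± 14.9 and 33.4 ± 3.47 CPM in resveratrol and 68.2 ± 8.80 and 30.1 ± 0.678 CPM in control, and 0 of the 3 other AP-2 genes tested passed.

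**Figure D3:**
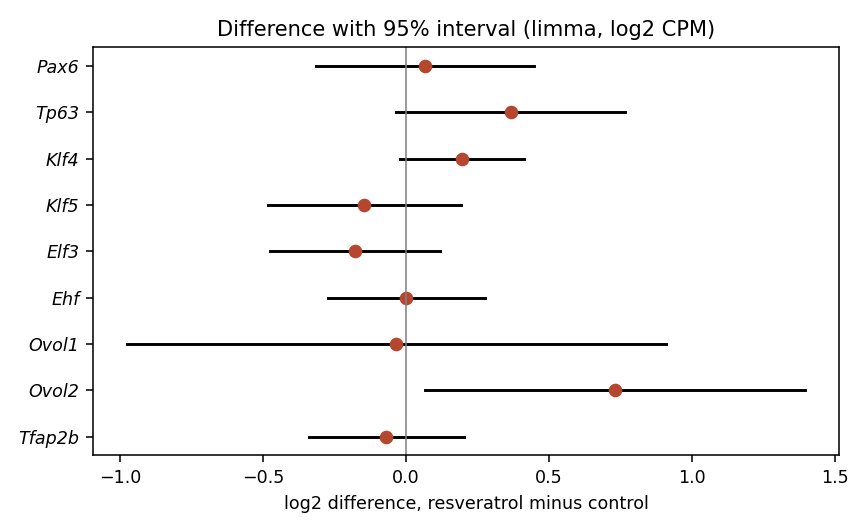
Log2 difference of each factor, resveratrol minus control, with its 95% interval from limma on log2 CPM (n = 3 per group, not adjusted for the number of genes). The interval lies above 0 for Ovol2, from 0.066 to 1.40, and spans 0 for the other 8.

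To set the factors against the amount of epithelial RNA in the same library, the mean log2 CPM of the 9 structural genes was subtracted from each. All of these genes but Epcam are also on the list of basal and p63 target genes or that of corneal differentiation genes. The measure is therefore not independent of the factors, and a joint change of a factor and these genes would not show in it. The mean of the 9 genes differed by 0.068 between resveratrol and control. Klf4 lay at -2.65 ± 0.029 in resveratrol and -2.78 ± 0.079 in control on this log2 scale (SD, n = 3 each), without overlap, a difference of 0.13 (exact two-sided permutation p = 0.1). With Krt12, Krt5 and Krt14 left out of the structural genes the Klf4 difference was 0.072 (exact permutation p = 0.3), and the groups no longer lay apart. Ovol2 lay at -9.34 ± 0.067 and -10.00 ± 0.485 in resveratrol and control, also without overlap, a difference of 0.66 (exact permutation p = 0.1). With 3 against 3 libraries 0.1 is the smallest p this test can give. The gaps were narrow. For Klf4 the lowest resveratrol library lay at -2.680 and the highest control library at -2.688. For Ovol2, which overlapped on CPM, they lay at -9.403 and -9.465. The share of all genes that lie apart on this scale was not computed. Tp63 overlapped once set against the epithelial genes, at -4.14 ± 0.27 and -4.44 ± 0.13 in resveratrol and control (difference 0.30, exact permutation p = 0.2). Pax6 differed by -0.0011 on this scale (exact permutation p = 1.0), at -3.62 ± 0.12 in resveratrol and -3.62 ± 0.19 in control. Before adjustment the exact p was at least 0.2 for the 7 factors other than Klf4 and Ovol2, and adjustment over 9 values could not lower any of them.

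The genes that the factors are known to act on in corneal differentiation gave a list of 29, of which 27 were tested. Means were higher in resveratrol for 17 and lower for 10 (median 0.047), and the groups did not overlap for 2 higher members and 1 lower member, 7.41% and 3.70% against 12.2% and 14.4% of all genes. Krt12 differed by 0.038 ± 0.26 and Aldh3a1, the corneal crystallin enzyme, by 0.23 ± 0.19. Aqp3, the epithelial glycerol channel, had 1965, 1999 and 1756 CPM in resveratrol, against 1339, 1403 and 1383 CPM in control (0.47 ± 0.097, edgeR adjusted p = 0.1002, DESeq2 adjusted p = 2.05e-05). Slurp1, a secreted immunomodulatory peptide controlled by KLF4 in the mouse cornea, had 155, 187 and 132 CPM against 96.6, 123 and 115 CPM (0.50 ± 0.14, DESeq2 adjusted p = 0.0328). Mmp9, a gelatinase, was lower in every resveratrol library, at 37.8, 76.0 and 38.0 CPM against 129, 139.6 and 114 CPM in control (-1.33 ± 0.26); neutrophils and macrophages make it as well, and their part was not tested. These 3 genes were named after their values were seen, and none passed edgeR. DESeq2 called all 3, with an adjusted p of 0.000139 for Mmp9. Its calls were thus 2 higher and 1 lower among the 27 tested, against 2.23% and 4.64% of all genes.

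Of 25 other transcription factors and regulators of epithelia 22 were tested, with higher means for 10 and lower for 12 (median -0.023), 3 higher and 3 lower without overlap, and 0 called by edgeR. The shares without overlap, 13.6% higher and 13.6% lower, were near the 12.2% and 14.4% of all genes. Trim29, the most counted, had 1913 ± 65.3 CPM in resveratrol and 1916 ± 25.8 CPM in control. Grhl2, a grainyhead factor that keeps the epithelial state, had 76.6, 63.3 and 71.3 CPM in resveratrol, against 50.05, 55.1 and 57.6 CPM in control (0.38 ± 0.098, edgeR adjusted p = 0.131). It was the only 1 of the 22 that DESeq2 called (adjusted p = 0.0263), against 2.23% of all genes called higher. Epidermal genes had lower means in 6 of 8 tested, with Krt6a at 4476 ± 540.2 CPM in resveratrol and 4720 ± 147 CPM in control and Krt17 at 1938 ± 890.3 and 2922 ± 509.8 CPM, and conjunctival genes in 5 of 6, with Krt4 at 1769 ± 747 CPM in resveratrol and 2377 ± 228 CPM in control. The 2 epidermal genes with higher means were the keratins Krt10 (0.51 ± 0.31) and Krt1 (0.28 ± 0.40), and both overlapped between the groups. Krt10 had 89.8 ± 15.6 CPM in resveratrol and 62.99 ± 26.3 CPM in control. Ivl had 72 counts over all libraries, and Flg, with 3, was not tested. None of the tested epidermal or conjunctival genes passed either test.

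**Figure D4:**
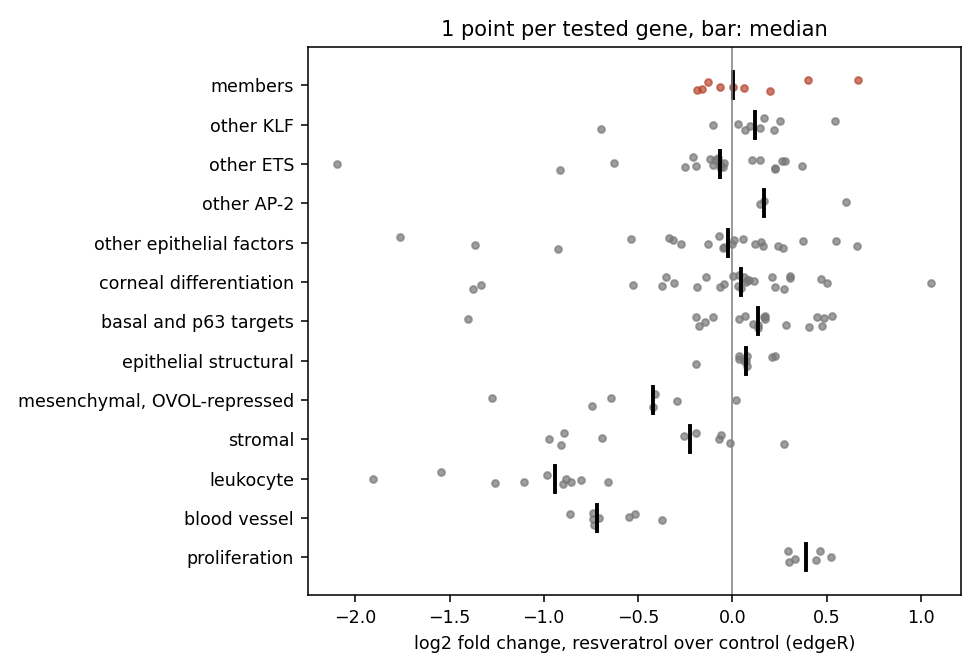
Log2 fold change of each tested gene, resveratrol over control, for the 9 factors and for lists of related genes and cell markers; the black bar is the median of the list. The 9 factors lie between -0.19 and 0.67 around a median of 0.0029, while the mesenchymal, leukocyte and vessel lists have medians of -0.42, -0.94 and -0.72.

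Replicate 1 of resveratrol and replicate 1 of control carry Sep at the end of the sample description, whereas the remaining 4 libraries carry Oct, and the meaning of these endings is not given in the labels. The Pax6 and Ovol1 values divided by this ending. Pax6 had 458 and 453 CPM in the Sep libraries, against 312 to 356 CPM in the 4 Oct libraries, and Ovol1 had 67.3 and 44.0 CPM against 93.1 to 132 CPM. In an edgeR fit with the treatment as a further term, chosen after the data were seen, the Sep minus Oct log2 fold change was 0.42 ± 0.076 for Pax6 (adjusted p = 0.254, unadjusted p = 0.00144). It was -1.01 ± 0.21 for Ovol1 (adjusted p = 0.263, unadjusted p = 0.00348) and 0.58 ± 0.23 for Ovol2 (adjusted p = 0.430, unadjusted p = 0.0385). No gene of the 14213 passed adjustment in this contrast, which sets 2 libraries against 4. Of the 9 factors 3 had an unadjusted p under 0.05, against 11.1% of all genes, and 2 did not overlap between the endings, 22.2% against 16.4%. Within the 4 Oct libraries the resveratrol minus control log2 fold change was 0.99 for Ovol2 (edgeR adjusted p = 0.241, unadjusted p = 0.00411), -0.37 for Klf5 (adjusted p = 0.249, unadjusted p = 0.00655) and -0.35 for Ovol1 (adjusted p = 0.265, unadjusted p = 0.0145). It was -0.29 for Elf3, 0.15 for Klf4, 0.15 for Tp63, -0.099 for Ehf, 0.092 for Pax6 and -0.034 for Tfap2b, with edgeR adjusted p-values of at least 0.346. The unadjusted p was under 0.05 for 3 of the 9 factors, against 2287 of the 14256 genes tested in these libraries. The Sep libraries hold 1 sample per group and allow no test.

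**Figure D5:**
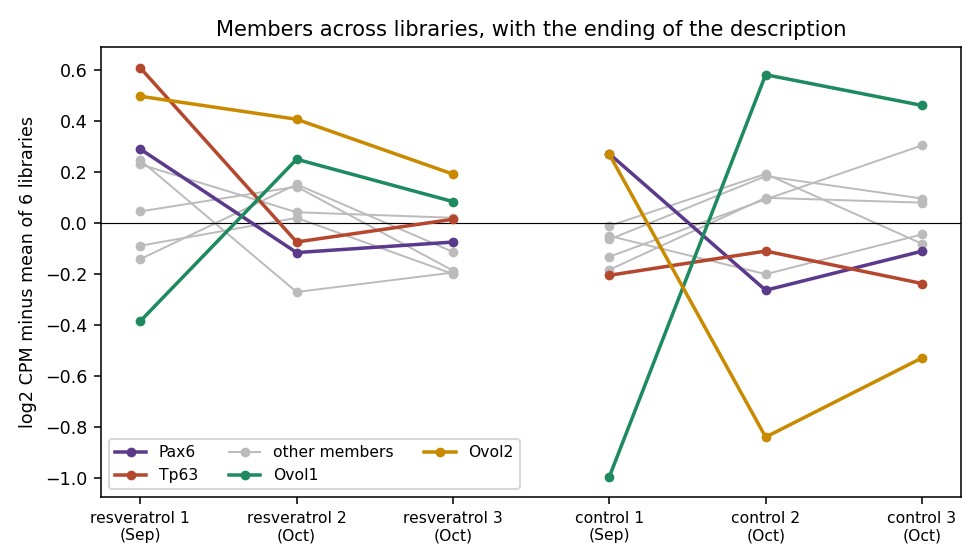
Log2 CPM of each factor minus its mean over the 6 libraries, with the resveratrol libraries left of the control libraries and the Sep or Oct ending of the sample description under each name. Pax6 is above its mean in both Sep libraries, Ovol1 is below its mean in both, at -0.38 in resveratrol 1 and -0.995 in control 1, and Ovol2 is lowest in control 2 and 3.

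Likeness between genes was measured as the root mean square difference of such centred log2 profiles over the 6 libraries, searched over 9010 genes with a mean of at least 10 CPM. The gene nearest to Ovol1 was the circadian gene Per2 (0.14), and those nearest to Pax6 and Klf4 were Marchf7 (0.045) and Snrk (0.021). Fry was nearest to Tp63 (0.078), Dguok to Klf5 (0.056), Tp53bp2 to Elf3 (0.046), Stradb to Ehf (0.034), Psapl1 to Ovol2 (0.15) and Cry2 to Tfap2b (0.035). Among the factors themselves Elf3 and Ehf were nearest to each other (0.12), while Ovol1 and Ovol2 had no member nearer than 0.45 and 0.39. The mean profile of the 9 factors was closest to those of Esco1, Rb1, Arhgap12, Rheb and Shb (0.019 to 0.029). With 6 libraries and 9010 genes some profile lies near any other by number alone, and the names describe these libraries only.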

How the data were processed

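RNA was extracted from corneas and sequenced as 150 bp paired-end reads, per the labels' protocols. The authors deposited a table of raw counts per gene (whole numbers, not normalized). They also deposited FPKM for those 17771 genes, per the file headers. DESeq2, R 3.2.0 and the build mRatBN7.2 appear in the submitters' processing notes without a stated role. Not given in the sources used here are the aligner, counter, annotation, strand setting and handling of shared reads, so antisense or overlapping transcripts cannot be told apart from a named gene. A separator was missing in the header of the count table, and its columns were assigned by the order of the names.

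Counts passed filterByExpr with default settings (14213 genes), were scaled with TMM factors and tested in R 4.3.3 with edgeR 4.0.16 (glmQLFit, glmQLFTest, treatment as the only term). Benjamini-Hochberg adjustment ran over all genes, with a threshold of 0.05. Standard errors and 95% intervals were taken from limma-trend (limma 3.58.1) fitted to log2 CPM, prior count 2, and stand beside edgeR's fold change. Moderation draws on genes of like level. For the most counted genes, such as Krt12, Krt5 and Krt14, these errors are wider than the spread of their own libraries, which the CPM show. DESeq2 1.42.0 was the alternative. The tests were tried on simulated data with known changes. Depth was 35068936 to 37460756 counts per library, so counting error is relatively largest for Ovol2.

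The 9 factors and all lists were chosen with earlier results of these data known. Named genes were the 9 factors, the 2 most counted tested genes of each list and the genes of nearest profile; all other list genes were named after their values were seen, and some genes that the rule names are not reported here. Alternatives were DESeq2 size factors, no filter, DESeq2, limma voom, the replicate block, the Sep or Oct ending, limma on log2(FPKM + 1) and log2(FPKM + 0.1), the Oct libraries alone, and leaving out each library; leaving out each library in DESeq2 was added after the data were seen.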

Additional observations from a re-analysis of the deposited data

How the results depend on the processing

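Over 21 alternatives for each of the 9 factors, 169 of 189 fits kept the sign and the side of the threshold, 19 reversed the sign and 1 passed the threshold. Klf4, Klf5, Elf3, Tp63 and Ovol2 kept their sign in all of them, though not their size. The case that passed was Ovol2 in DESeq2 without control replicate 1 (1.07, adjusted p = 0.000883). Leaving out 1 library at a time, in edgeR or DESeq2, gave log2 fold changes from 0.45 to 1.07 for Ovol2, from -0.30 to -0.019 for Klf5, from -0.28 to -0.052 for Elf3, from -0.070 to 0.24 for Pax6, from -0.078 to 0.10 for Ehf, from -0.51 to 0.11 for Ovol1 and from -0.16 to 0.033 for Tfap2b. In the Oct libraries alone Ehf was at -0.099 and Klf5 at -0.37. Set against the epithelial genes, leaving out 1 library gave -0.084 to 0.10 for Pax6, -0.21 to 0.015 for Ehf and -0.66 to 0.21 for Ovol1, and Pax6 was at 0.033 with Krt12 alone as the measure. Without Krt12, Krt5 and Krt14 in the measure Klf4 was at 0.072 (exact permutation p = 0.3). The causes were not tested beyond the loss of the library itself. The number of genes called over the whole table was 0 in edgeR, 1007 in DESeq2, and 0 to 1041 when 1 library was left out, with 390 to 1041 from DESeq2 (edgeR gave 21 without control replicate 3 and 1 without resveratrol replicate 2). With the replicate block the log2 fold changes were 0.067 for Pax6, 0.73 for Ovol2, 0.37 for Tp63 and 0.20 for Klf4, 0 genes were called and no call changed. The labels state no pairing, and same-numbered libraries did not deviate together (correlation of deviations from the group means across genes -0.0044, -0.012 and -0.023). Ovol2, with 114 to 290 counts per library, is the factor for which depth limits the precision most.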

Other observations

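Circadian clock genes were looked at after Per2 and Cry2 came out as the nearest profiles to Ovol1 and Tfap2b, so their values are a description. Per2, a repressor of the clock, had 19.0, 24.4 and 21.6 CPM in resveratrol replicates 1, 2 and 3, against 12.99, 37.9 and 33.5 CPM in control replicates 1, 2 and 3. Both Sep libraries lay below the 4 Oct libraries for Per2, as they did for Ovol1 (Sep minus Oct log2 fold change -0.83 ± 0.26, edgeR adjusted p = 0.368). Nr1d1, a nuclear receptor that represses Arntl, was higher in both Sep libraries, at 182 and 128 CPM against 88.6 to 111 CPM (0.67 ± 0.16, edgeR adjusted p = 0.281). Dbp, an output gene of the clock, had 72.5, 59.6 and 46.8 CPM in resveratrol and 55.9, 118 and 83.2 CPM in control, so control replicates 2 and 3 were its highest libraries. Arntl, the clock activator also called BMAL1, had 13.6, 14.8 and 11.8 CPM in resveratrol and 17.0, 5.47 and 7.40 CPM in control, with the order of the control libraries opposite to that of Dbp. Of the 14 clock genes tested, Clock was the only one without overlap between the treatments, against 26.5% of all genes, at 255, 279 and 225 CPM in resveratrol and 177, 167 and 200.6 CPM in control (0.48 ± 0.11, edgeR adjusted p = 0.121, DESeq2 adjusted p = 0.00518). Per2 and Nr1d1 were the 2 of 14 that divided by the ending, against 16.4% of all genes, and the other 12 overlapped. The labels used here give no time of day at which the corneas were taken, and its part in the values of Ovol1 was not tested.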
